A study of Mus musculus with 4 samples.

Results

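The 9 genes described here encode ligands, receptors and an enzyme through which macrophages restrain or assist T cells: Cd274, Pdcd1lg2, Cd80, Cd86, Cd40, Vsir, Lgals9, Havcr2 and Ido1. They were taken by gene symbol from 4 deposited tables, namely a list of m6A peaks for each genotype, a list of differential peaks and a gene table. All 9 had a peak in at least 1 list, among 14799 genes with a peak in either. The study measured N6-methyladenosine (m6A) in the poly(A) RNA of C57BL/6 mouse bone-marrow-derived macrophages, grown for 7 days with macrophage colony-stimulating factor (M-CSF) and then kept for 24 hours with MC38, a colon carcinoma cell line of the mouse. The cKO macrophages carried loxP-flanked alleles of Mettl3 (Mettl3fl/fl) and LysM-cre, a Cre recombinase driven by a promoter active in myeloid cells. The WT macrophages carried the same Mettl3fl/fl alleles without Cre. Each genotype had 1 IP library, from fragments bound by an m6A antibody, and 1 input library, from fragments not put through that step. No value below therefore has a replicate, an SD or a p of its own, and each difference compares single libraries. The authors' p-values quoted below come from these same single libraries. They do not measure variation between mice or between preparations. The sources used here give neither the age and number of the mice nor the share of cells that lost Mettl3.

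METTL3 is the catalytic subunit of the complex that methylates adenosines in messenger RNA, mostly within GGAC-like sequences in long exons, near stop codons and in 3' UTRs. Proteins that bind the mark act on the stability and translation of the transcript. PD-L1 (Cd274) and PD-L2 (Pdcd1lg2) bind the inhibitory receptor PD-1 on T cells. CD80 and CD86 bind the activating receptor CD28 and the inhibitory receptor CTLA-4, and CD40 receives the CD40 ligand of helper T cells. VISTA (Vsir), galectin-9 (Lgals9) and TIM-3 (Havcr2) belong to other inhibitory axes, and IDO1 breaks down tryptophan, which T cells need.

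The targeted gene gave no check of the genotypes: Mettl3 had 4 peaks in the cKO list and 2 in the WT list, 0 differential peaks, and an input level not analysed here. Input levels, in FPKM (fragments per length of transcript and size of library), come with the gene table, which repeats the differential peaks and so covers only genes that have one; they were used at a mean of at least 1 FPKM. Of 9 macrophage markers, 8 had an input level, from 6.29 to 1980 FPKM in the cKO and from 11.1 to 3393 FPKM in the WT, with Cd68 at 633.5 FPKM in the cKO and 695.4 FPKM in the WT. Of 9 lymphoid markers 7 had no peak in either list. Cd79a alone had an input level, under the filter, at 0.422 FPKM in the cKO and 0.970 FPKM in the WT. The other lymphoid markers have no differential peak, so their input levels are missing here rather than low. Among 9 dendritic cell markers 6 had a peak in either list, among them Zbtb46, Itgax, Ccr7 and Ccl22, and Flt3, Xcr1 and Cd209a had none. An input level was given for 2 of the 9, summing to 13.1 FPKM in the cKO and 10.6 FPKM in the WT. Of 6 neutrophil markers S100a8 alone had a level, 13.7 FPKM in the cKO and 12.3 FPKM in the WT, and of 8 epithelial markers Krt19 alone, 10.8 FPKM in the cKO and 7.05 FPKM in the WT. A peak in either list was found for 3 of these neutrophil markers and for 4 of these epithelial markers, namely Krt8, Krt18, Krt19 and Cdh1. Of 7 mesenchymal markers, 5 had an input level, summing to 194.8 FPKM in the cKO and 108.8 FPKM in the WT. In bulk RNA, fewer cells of a type and less RNA per cell cannot be told apart. Depth is unknown, since total reads per library were not analysed here.

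A stretch of each transcript with a sequence that could carry the mark is shown first. Only part of the m6A consensus was searched, as the pentamer GGACT and its variants GGACA and GGACC, none of which can overlap another. The search was on the transcript strand only, since the mark is on RNA. Other sequences that could carry the mark were not searched, so a peak without a match may still hold one. For each gene 1 match with 8 bases on each side is given 5′ to 3′, in DNA letters from GENCODE M21 transcripts (mm10), with the pentamer in capitals. It is the GGACT nearest to the stop codon within the gene's strongest peak of either list, among matches whose 21 nt lie in 1 exon. Lgals9, whose exonic peaks held no match, is shown with its match nearest to the stop codon.
Cd274 (chr19:29382498-29382518, plus strand): acagaacaGGACTcactgggt
Pdcd1lg2 (chr19:29470568-29470588, plus strand): agacttctGGACTcaaagtga
Cd80 (chr16:38494515-38494535, plus strand): tctgcaaaGGACTtcagaaac
Cd86 (chr16:36604424-36604444, minus strand): ttatggaaGGACTgatctgcc
Cd40 (chr2:165070963-165070983, plus strand): ggctctgaGGACTgcttgctg
Vsir (chr10:60369393-60369413, plus strand): cctctgttGGACTgactctat
Lgals9 (chr11:78967446-78967466, minus strand): gcacccctGGACAgatgttct
Havcr2 (chr11:46479447-46479467, plus strand): ccgcctctGGACTgccacttt
Ido1 (chr8:24584469-24584489, minus strand): aagcagagGGACTgggggtac
Counted from the end of the stop codon to the A of the pentamer, the match lay 11 nt into the 3' UTR in Havcr2, 60 nt in Cd40, 86 nt in Pdcd1lg2, 86 nt in Cd80, 464 nt in Vsir and 928 nt in Cd86. In Cd274, Ido1 and Lgals9 it lay in the coding sequence, at positions -162, -78 and -454. A match describes the letters and is not a mapped site.

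Most peaks of the 9 genes lay at overlapping places in both genotypes, and most carried the region label 3' UTR. The cKO list held 14 peaks in 9 genes and the WT list 15 peaks in 8 genes, Ido1 being the gene with a peak in the cKO list alone. The authors' region label was 3' UTR for 13 of the 14 cKO peaks, against 55.7% of all cKO peaks, and for 14 of the 15 WT peaks, against 56.2% of all WT peaks. A further cKO peak lay in the 5' UTR of Vsir and a further WT peak in an intron of Lgals9. Of the cKO peaks 12 overlapped a WT peak on the same strand, against 71.3% of all cKO peaks. Of the WT peaks 14 overlapped a cKO peak, against 73.2% of all WT peaks. The value of a peak is the authors' log2 ratio of IP over input, here called enrichment. It ran from 0.75 to 2.98 in the cKO peaks (median 1.71, against 1.30 for all cKO peaks) and from 0.62 to 3.47 in the WT peaks (median 1.38, against 1.22 for all WT peaks).

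**Figure D1:**
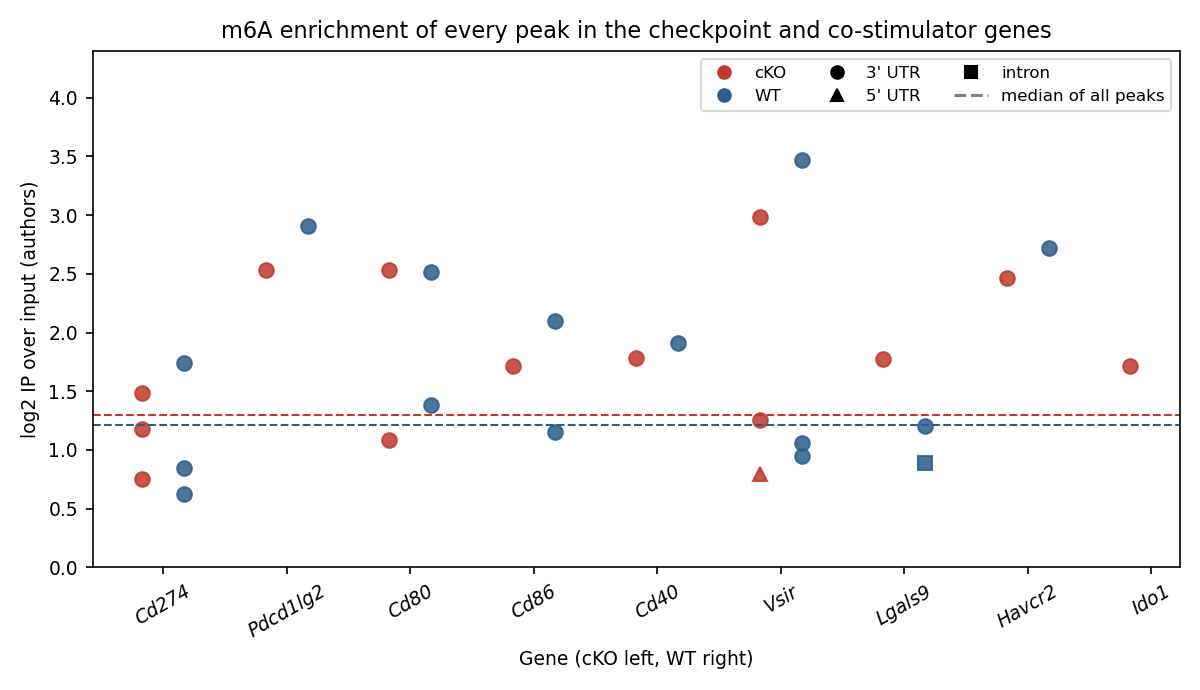
Enrichment (log2 IP over input, vertical axis) of every peak of the 9 genes, with cKO peaks in red left of WT peaks in blue, the authors' region as the symbol, and dashed lines at the median of all peaks of each genotype (1.30 in the cKO, 1.22 in the WT). Vsir has the highest value in both genotypes, at 2.98 in the cKO and 3.47 in the WT, and Ido1 has a cKO peak only.

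The files give only the outer ends of a peak, so its exonic part was read from the GENCODE transcript. The label 3' UTR covered more than that region, since many of these peaks ran from the coding sequence across the stop codon. A peak held the stop codon in 8 of 14 cKO peaks, 1 in each gene except Lgals9, against 18.5% of all cKO peaks on coding transcripts. It did so in 7 of 14 WT peaks placed on exons, against 19.8% of all WT peaks on coding transcripts. Long peaks hold it more often: among peaks of at least 600 exonic nt the counts were 7 of 8 in the cKO, against 48.5% of all such cKO peaks, and 7 of 10 in the WT, against 51.3% of all such WT peaks.

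**Figure D2:**
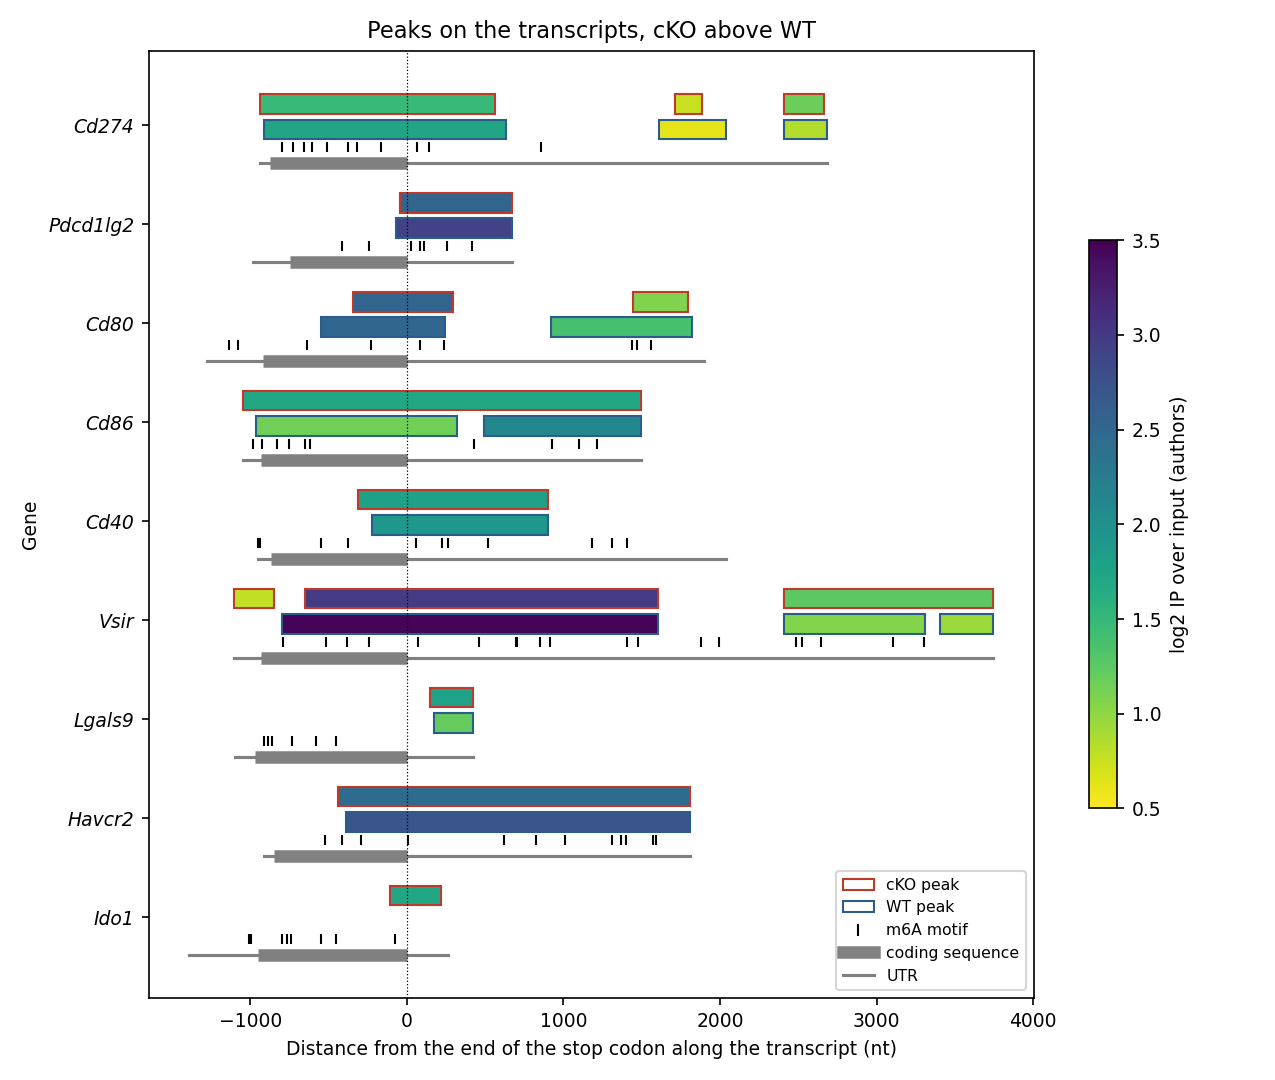
Peaks of the 9 genes along their transcripts (horizontal axis, nt from the end of the stop codon), cKO peaks outlined in red above WT peaks outlined in blue, filled by enrichment, with ticks at the 3 pentamers searched, thick grey lines for coding sequence and thin ones for UTRs. In Cd86 the cKO has a single peak over the whole transcript where the WT has separate ones, and the intronic WT peak of Lgals9 is not on the transcript.

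Cd274, which encodes PD-L1 (ENSMUSG00000016496, chromosome 19, 29367455 to 29388095, plus strand), had 3 peaks in each list, and its strongest peak was lower in the cKO while both weaker peaks were higher. The strongest covered the coding sequence and the first 561 nt of the 3' UTR in the cKO (29367455 to 29385973, 1500 exonic nt) and its first 636 nt in the WT (29367480 to 29386048, 1550 exonic nt). Its enrichment was 1.48 in the cKO and 1.74 in the WT. A middle 3' UTR peak stood at 0.75 in the cKO and 0.62 in the WT, over 175 nt of exon in the cKO and 425 nt in the WT. A peak at the transcript's 3' end stood at 1.18 in the cKO and 0.85 in the WT. Of these peaks, the first and last are in the authors' deposited table of differential peaks, which holds only peaks with an unadjusted p below 0.05. The strongest fell to 1.44 in the cKO, against 1.73 in the WT (difference -0.29, adjusted p 7.34e-38 by the authors' deposited table). The 3' end peak rose in the same table to 1.12 in the cKO, against 0.78 in the WT (difference 0.33, adjusted p 6.82e-10). The stretch that fell held 10 of the transcript's 11 pentamer matches, 8 of them coding, and the 272 nt that rose held 0. The gene AC119228.1 lies on the opposite strand across part of Cd274; the libraries keep strand per the labels, while whether counting used it is not stated.

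Pdcd1lg2, which encodes PD-L2 (chromosome 19, 29410919 to 29471161, plus strand), had a single, stronger peak in each list and no differential peak. It covered the end of the coding sequence and the whole 3' UTR of 669 nt, with 711 exonic nt in the cKO and 736 in the WT. Its enrichment was 2.54 in the cKO and 2.91 in the WT, which placed it at percentile 89.1 of cKO peaks and percentile 90.9 of WT peaks. The difference between the lists was -0.37. Both peaks held 5 pentamer matches, all in the 3' UTR, and A930007I19Rik lies on the opposite strand across the gene's end.

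The B7 co-stimulator genes Cd80 and Cd86 both lie on chromosome 16, and their peaks were laid out differently. Cd80 (38455561 to 38496335, plus strand) had a peak over the stop codon at 2.54 in the cKO and 2.51 in the WT, a difference of 0.02. Its second peak, far out in the 3' UTR, stood at 1.08 over 350 nt in the cKO and at 1.38 over 900 nt in the WT. Cd80 had no differential peak.

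Cd86 (36603869 to 36666081, minus strand) had 1 peak over all 2539 nt of its transcript in the cKO, at 1.71. The WT list held separate peaks over the same transcript, at 1.16 over the coding part and the first 318 nt of the 3' UTR and at 2.10 over the last 1000 nt of the 3' UTR. The cKO value thus lay between the WT values, and the list values could not be paired peak to peak. The authors' deposited table lists the upstream stretch (36605044 to 36666020) at 1.36 in the cKO and 1.11 in the WT, a difference of 0.25 with an adjusted p of 0.140. The last 1000 nt of the 3' UTR, with the stronger WT peak, had no differential peak.

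Cd40, the receptor that licenses antigen-presenting cells (chromosome 2, 165055627 to 165072948, plus strand), had 1 peak over the stop codon in each list and no differential peak. Its enrichment was 1.79 in the cKO and 1.91 in the WT. Both peaks ended at the same position, 904 nt into the 3' UTR of 2035 nt, and held 4 pentamer matches each. The remaining 3' UTR held 3 further matches and no peak.

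Vsir, which encodes VISTA (chromosome 10, 60346851 to 60372684, plus strand), carried the strongest peak of the 9 genes and, like Cd274, differences in both directions. Its main peak covered 650 nt of coding sequence and 1606 nt of 3' UTR in the cKO, and 800 nt of coding sequence and the same 3' UTR in the WT. The enrichment was 2.98 in the cKO and 3.47 in the WT, at percentile 93.4 of cKO peaks and percentile 95.2 of WT peaks. In the authors' deposited table this stretch fell to 2.93 in the cKO, against 3.44 in the WT (difference -0.51, adjusted p 1.01e-84). The distal 3' UTR was 1 peak at 1.25 in the cKO list and split peaks at 1.06 and 0.95 in the WT list. The authors' deposited table gives this distal part as risen to 1.21 in the cKO, against 1.04 in the WT (difference 0.17, adjusted p 0.0226). At the 5' end the cKO list had a peak at 0.79 over 250 nt and the WT list had none. The authors' deposited table takes 200 nt of it, where enrichment rose to 1.39 in the cKO, against 0.24 in the WT (difference 1.14, adjusted p 0.00130) over this narrower window. The whole gene lies inside Cdh23, which is on the opposite strand.

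Lgals9 and Havcr2 encode galectin-9 and TIM-3, a lectin and a T-cell and myeloid receptor reported to bind it. Their 3' UTR peaks were higher in the cKO for Lgals9 and lower in the cKO for Havcr2. Lgals9 (chromosome 11, 78962974 to 78984946, minus strand) had a 3' UTR peak at the transcript's end at 1.77 in the cKO, over 275 nt, and 1.20 in the WT, over 250 nt. By the authors' deposited table it rose to 1.74 in the cKO, against 1.09 in the WT (difference 0.65, adjusted p 1.15e-07). All 6 pentamer matches of the Lgals9 transcript lay in coding sequence, where neither list had a peak. The intronic peak of Lgals9 (78969865 to 78970014) was in the WT list alone, at 0.89. Havcr2 (chromosome 11, 46454935 to 46481255, plus strand) had a single peak over the last part of the coding sequence and the whole 3' UTR of 1809 nt, at 2.46 in the cKO and 2.72 in the WT. It held 11 pentamer matches in the cKO and 10 in the WT, and Havcr2 had no differential peak.

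Ido1, the tryptophan-degrading enzyme (chromosome 8, 24584136 to 24597009, minus strand), had 1 peak, in the cKO list alone. It covered 109 nt of coding sequence and 216 nt of 3' UTR at an enrichment of 1.71, with an adjusted p of 0.00442 in the authors' deposited cKO list. The largest adjusted p among the other 13 cKO peaks of the 9 genes was 0.000342, for the distal peak of Cd80. Ido1 had no differential peak and no input level here, so its cKO and WT values could not be set side by side.

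Across the 9 genes, 4 had a differential peak in the authors' deposited table, against 49.9% of all genes with a peak in either list. They had 7 such peaks, 5 higher in the cKO, against 48.9% of all listed differential peaks, and 2 lower, against 51.1%. With the authors' adjusted p held below 0.05, 6 of the 7 remained, against 53.3% of all listed peaks: 4 were higher, against 24.4%, and 2 lower, against 28.9%. The median difference was 0.25 over the 7 peaks and -0.18 over all listed peaks. The 2 that fell were the longest of the 7 in exonic bases, those of Vsir and Cd274, and the 4 that rose were the 3' end peaks of Cd274, Vsir and Lgals9 and the 5' UTR peak of Vsir. Both genes with at least 2 differential peaks, Cd274 and Vsir, had the strongest lower and every other higher, a layout found in 23.2% of all genes with at least 2 differential peaks.

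Matched peaks gave a second reading, from the lists rather than the differential table. Of the peaks of 7 genes, 10 overlapped exactly 1 peak of the other genotype, and 6 of them were lower in the cKO list, against 45.2% of all 19387 such peaks. Their median difference was -0.19, and that of all such peaks was 0.04. All such peaks were put into 5 groups of equal size by mean enrichment. Of the 4 peaks of these genes in the strongest group, those of Vsir, Pdcd1lg2 and Havcr2 were lower in the cKO, at -0.49, -0.37 and -0.25, and that of Cd80 was 0.02 higher. In that group 68.8% of all peaks were lower. The next group held the main Cd274 peak (-0.25) and the Cd40 peak (-0.12), both lower in the cKO, where 49.0% of all peaks were lower. Of the 4 in the 3 weakest groups, the weaker peaks of Cd274 (0.13 and 0.33) and the Lgals9 peak (0.57) were higher in the cKO, and the distal Cd80 peak was lower (-0.30). Unlike lengths were compared in the middle Cd274 pair, 175 nt in the cKO against 425 nt in the WT. The distal Cd80 pair likewise set 350 nt in the cKO against 900 nt in the WT. The Lgals9 difference exceeded that of 90.3% of all such peaks, and the Vsir difference exceeded that of 9.43%.

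**Figure D3:**
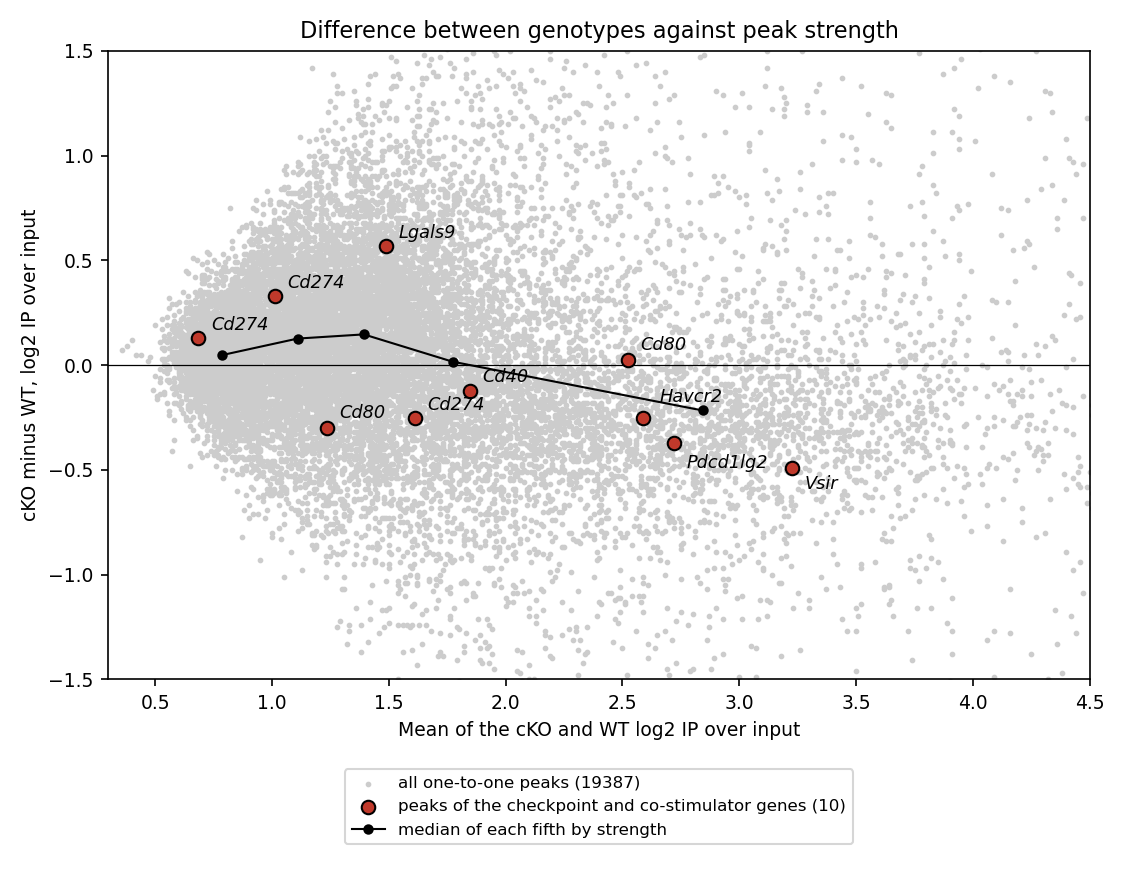
Difference in enrichment, cKO minus WT (vertical axis, log2), against the mean enrichment of both genotypes (horizontal axis, log2) for 19387 peaks that overlap 1 to 1 (grey; 557 lie outside the axes), with the 10 peaks of the checkpoint and co-stimulator genes in red. The black line joins the medians of 5 groups of equal size by strength and reaches -0.22 in the strongest, where the peaks of Vsir, Pdcd1lg2 and Havcr2 lie between -0.49 and -0.25.

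The pentamers were also searched in all peaks, for a background. At least 1 match lay in 10 of 14 cKO peaks, against 62.0% of all placed cKO peaks, and in 10 of 14 WT peaks, against 62.5% of all placed WT peaks. The 4 cKO peaks with no match were all under 300 exonic nt, a length at which 39.7% of all placed cKO peaks held one. Of the 4 WT peaks with no match, those of Lgals9 (250 nt) and of the 3' end of Cd274 (272 nt) were under 300 nt, where 40.2% of all placed WT peaks held one. The middle Cd274 peak (425 nt) and the last Vsir peak (339 nt) were longer, and from 300 nt to under 1000 nt 78.8% of all placed WT peaks held one. The density in peaks of the 9 genes was 4.41 per 1000 nt in the cKO and 4.23 in the WT, against 3.86 over all placed cKO peaks and 3.90 over all placed WT peaks. Among the differential peaks of the 9 genes, both that fell held matches, 12 in Vsir and 10 in Cd274. Of the 5 listed as higher, 3 held none, namely the 5' UTR peak of Vsir, the 3' end peak of Cd274 and the Lgals9 peak. Those of Cd86 and of the distal 3' UTR of Vsir held 6 and 5. Over the listed differential peaks that could be placed on a transcript, 45.1% of 4618 higher and 22.5% of 5017 lower peaks held none. At 200 to 300 exonic nt, the size of the 3 peaks of these genes without a match, 53.1% of the higher and 44.5% of the lower ones held none. At 1000 exonic nt or more, the size of both peaks that fell and of the higher peaks with matches, 96.3% of the higher and 99.7% of the lower ones held a match. Matches per 1000 nt were 2.81 in the higher and 3.65 in the lower peaks of 200 to 300 exonic nt. At 1000 exonic nt or more they were 3.86 in the higher and 4.25 in the lower ones. Whether a match or the length of a peak bears on the direction of its difference was not tested.

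Input levels could be read for 4 of the 9 genes, and each differed by less than 2-fold between genotypes. Cd274 stood at 273.0 FPKM in the cKO and 295.4 FPKM in the WT. Vsir stood at 88.0 FPKM in the cKO and 67.9 FPKM in the WT. Lgals9 stood at 36.7 FPKM in the cKO and 40.7 FPKM in the WT, and Cd86 at 6.91 FPKM in the cKO and 8.75 FPKM in the WT. The order of levels was the same in both inputs, with Cd274 above Vsir, Lgals9 and Cd86, and Cd274 at percentile 98.5 of genes with a mean of at least 1 FPKM. On the log2(FPKM + 1) scale the cKO minus WT difference was 0.37 for Vsir, -0.11 for Cd274, -0.14 for Lgals9 and -0.30 for Cd86. Of the 4, 0 reached a 2-fold difference, against 0.839% of 6079 genes, 0.411% higher and 0.428% lower in the cKO, and the authors' deposited table gives each a q of 1. The median over the 4 was -0.13 and over the 6079 genes -0.02. Vsir, with higher input in the cKO, exceeded 95.5% of these genes, and the enrichment of its main peak was lower in the cKO. Over the 8 macrophage markers with a level, 2 were higher and 6 lower in the cKO, and the median over the 8 was -0.14. Their levels summed to 3333 FPKM in the cKO and 4894 FPKM in the WT, and most of that gap was Lyz2, at 1980 FPKM in the cKO and 3393 FPKM in the WT. Lyz2 encodes lysozyme M, and its locus carries the Cre in LysM-cre mice. Without it the other 7 summed to 1353 FPKM in the cKO and 1501 FPKM in the WT, with 2 higher and 5 lower in the cKO. The part of cell composition, including the mesenchymal markers at a higher sum in the cKO, in the differences of the 4 genes was not tested. Pdcd1lg2, Cd80, Cd40, Havcr2 and Ido1 have no differential peak, and their input levels were not analysed here.

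**Figure D4:**
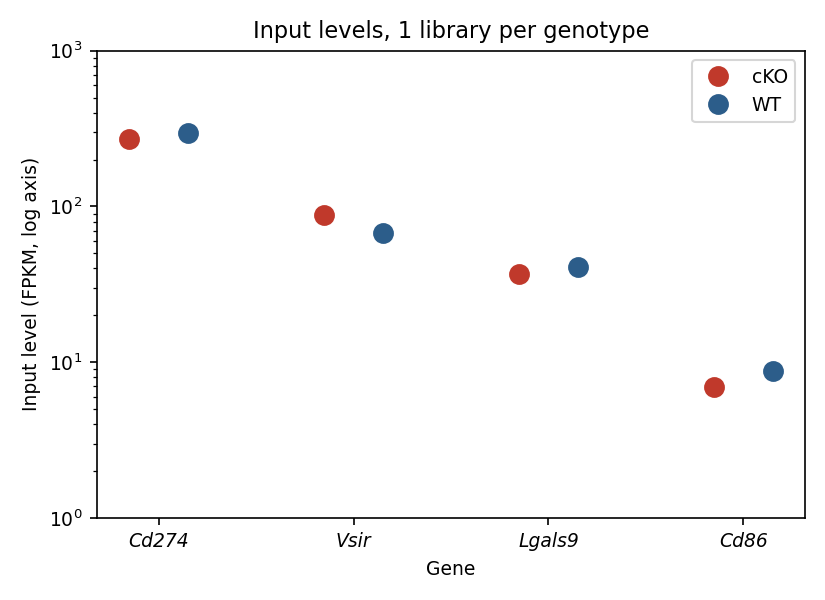
Input level in FPKM (vertical log axis) of the 4 genes with a value, 1 library per genotype, cKO in red left of WT in blue. Each pair lies within 2-fold, from 273.0 FPKM in the cKO and 295.4 FPKM in the WT for Cd274 down to 6.91 FPKM in the cKO and 8.75 FPKM in the WT for Cd86.

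Other genes of the same exchange were read from 2 lists. Of 36 genes that act between macrophages and T cells, 29 had a peak and 22 of these (75.9%) a differential peak, against 49.9% of all genes with a peak. The 35 differential peaks of this list were 13 higher (37.1%, against 48.9% of all listed) and 22 lower (62.9%, against 51.1%) in the cKO in the authors' deposited table. With its adjusted p held below 0.05, 12 were higher (34.3%, against 24.4%) and 15 lower (42.9%, against 28.9%). Among them, the 3' UTR peak of Icosl, the ligand of the co-stimulatory receptor ICOS, fell to 3.12 in the cKO, against 3.73 in the WT (adjusted p 0.00868 in the authors' deposited table). Tgfb1, which encodes an immunosuppressive cytokine, had the largest difference of the list, in a 5' UTR peak of 3.14 in the cKO and -0.97 in the WT (adjusted p 0.00223 in the authors' deposited table), beside a longer 5' UTR peak that fell to 1.27 in the cKO, against 1.63 in the WT (adjusted p 6.43e-11). Of the 20 genes with an input level, 9 were higher and 11 lower in the cKO, 0 by 2-fold, with a median of -0.10. The largest input difference was that of Icosl, at 2.42 FPKM in the cKO and 1.41 FPKM in the WT.

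Of 21 regulators of these ligands and receptors, all had a peak and 13 (61.9%, against 49.9% of all genes with a peak) had a differential peak. Their 22 differential peaks were 7 higher (31.8%, against 48.9% of all listed) and 15 lower (68.2%, against 51.1%) in the cKO. With the adjusted p of the authors' deposited table held below 0.05, 6 were higher (27.3%, against 24.4%) and 9 lower (40.9%, against 28.9%). The main 3' UTR peak of Traf6, an adaptor of CD40 signalling, fell to 3.43 in the cKO, against 3.90 in the WT (adjusted p 1.63e-17 by the authors' deposited table), and both distal Traf6 peaks rose, by 0.43 and 1.07 (adjusted p 0.0408 and 0.0185 there). A 3' UTR peak of Marchf1, whose product removes CD86 from the cell surface, fell to 1.96 in the cKO, against 2.68 in the WT (adjusted p 4.13e-09 in the authors' deposited table). Of the 13 regulators with an input level, 4 were higher and 9 lower in the cKO. The largest differences were those of Irf1 and Irf8, transcription factors of the interferon response, a known inducer of Cd274. Whether either bears on the Cd274 level in these libraries was not tested. Irf1 stood at 21.4 FPKM in the cKO and 47.7 FPKM in the WT, and was the 1 of 13 regulators at least 2-fold lower, against 0.428% of the 6079 genes. Irf8 stood at 20.4 FPKM in the cKO and 27.98 FPKM in the WT. These differences were larger than the -0.11 of Cd274 on the log2 scale, at -1.12 for Irf1 and -0.43 for Irf8, and had a q of 1 in the authors' deposited table.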

How the data were processed

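Poly(A) RNA was, per the labels' protocols, fragmented, pulled down with an m6A antibody and made into strand-marked libraries, with 1 IP and 1 input library per genotype. The submitters' processing notes name mm10 as the build and, without role, edgeR, StringTie, ChIPseeker, HOMER, HISAT2 and fastp. The peak caller, like how IP was scaled to input, is not given in the sources used here. The deposited peak lists give log2 IP over input with an adjusted and an unadjusted p-value from the authors. The deposited differential table gives log2 values for each genotype, its columns identified at 1444 cKO and 1619 WT positions identical to the lists. The deposited gene table gives FPKM of both inputs.

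Overlaps need the same strand and at least 1 bp. Exonic parts and motifs were read from GENCODE M21, for the 9 genes on the protein-coding transcript with most peak bases and for all other peaks on the transcript the authors name. Starts in the files count from 0 and are printed from 1. Input differences are log2(FPKM + 1), cKO minus WT, at a mean FPKM of at least 1, which makes changes of low genes look smaller. No test was run, as each group has 1 library. The scripts for overlap, transcript position and motif search were tested on simulated data. All members and up to 5 genes per list by input or peak difference could be named, and 1 of these is not reported here. The members and lists were chosen with earlier results of these data known. Python 3.11.15, pandas 2.3.3 and numpy 2.4.6 were used.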

Additional observations from a re-analysis of the deposited data

How the results depend on the processing

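No paired analysis was possible because each group has 1 library. Of 34 recomputed values, 30 kept their direction and lay within 1.5 times the reported one. That count includes input differences recomputed under other FPKM filters. A filter cannot change a retained gene's own difference, so those values were the same by construction. With an overlap of at least 50% of both spans, 9 of the 15 WT peaks were shared with the cKO, against 14 at 1 bp; fewer pairs meet that overlap by construction. With an absolute log2 difference of at least 1 required, 1 differential peak was higher in the cKO, the 5' UTR peak of Vsir, and 0 were lower, since both that fell differed by less. For Cd86 the lists hold a single cKO peak over the whole transcript, which overlaps both WT peaks. Its difference was 0.56 from the upstream WT peak, against 0.25 in the authors' deposited table for that stretch. From the stronger WT peak at the end of the 3' UTR it was -0.39, so the lists give no single direction for Cd86. The 5' UTR peak of Vsir has no WT list value and could not be recomputed this way. The overlap by exonic bases was added after seeing the data. Overlap by exonic blocks was not run, as the files give outer ends only. Neither the unknown depth nor the unknown scaling of IP to input could be varied.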
